A study of Mus musculus with 4 samples.

Results

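The genes described here encode components of the Wnt, BMP and TGF-beta, and Notch signalling pathways. They were taken from the deposited expression table by gene name: Wnt ligands, Frizzled and Lrp5/6 receptors, secreted Wnt inhibitors, the beta-catenin machinery, BMP and TGF-beta ligands and receptors, Smads, Id genes, Notch receptors and ligands, Hes and Hey genes, and Maml and Numb. Smad7 and Tcf7l2 were left out by the rule. This gave 55 of the 6940 listed genes, 21 of the Wnt pathway, 23 of the BMP and TGF-beta pathways and 11 of the Notch pathway. GENCODE M21 annotates 115 protein-coding genes that match the same names; those outside the table were not analysed here.

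Messenger RNA was sequenced from oligodendrocytes, the myelin-forming cells of the central nervous system, cultured from the cortex of C57BL/6 mice at postnatal day 5. Precursors were enriched by immunopanning (capture on antibody-coated dishes) with antibodies first to GalC and then to O4, grown for 6 days, and harvested 24 h after a switch to a differentiation medium that held triiodothyronine, a thyroid hormone, at 40 ng/mL. The 2 control libraries were Zdhhc5fl/fl, with no Cre named in their genotype, and the 2 conditional knockout libraries, called cKO, were Olig1cre/+;Zdhhc5fl/fl. Cre in the Olig1 locus deletes the floxed Zdhhc5, a gene for an enzyme that attaches palmitate to proteins, in Olig1-expressing cells. Cells of both genotypes carried the floxed alleles, and only the cKO genotype has Cre and a changed Olig1 locus, so the effects of these and of Zdhhc5 loss cannot be told apart. The labels do not say whether libraries of a genotype came from separate animals or cultures, and p-values therefore measure only the spread between these libraries, which may be technical.

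Wnt ligands bind Frizzled receptors with Lrp5 or Lrp6 and release beta-catenin from a destruction complex built on Apc and Axin. BMP and TGF-beta ligands bind paired type I and type II receptor kinases that phosphorylate Smad proteins, and Notch receptors are cleaved on contact with ligands of neighbouring cells and then act in the nucleus with Rbpj and Maml. In the oligodendrocyte lineage Wnt, BMP and Notch signalling are known mainly as brakes on differentiation, whereas TGF-beta is known to favour cell cycle exit and maturation. BMPs also favour the astrocyte fate and act through Id proteins, and Notch acts through Hes and Hey repressors.

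The listed genes held 13672254 to 20068016 recovered reads per library. Levels are normalised reads, a gene's reads divided by the size factor of its library. The table lists only genes that the authors had called, 40.0% of the 17347 genes behind their adjustment, so being called says nothing about a gene here and only directions and sizes are informative. Zdhhc5 itself was not analysed here, and the genotype labels were not checked by its level. Of 12 markers of the oligodendrocyte lineage fixed for this purpose, 11 were listed and all 11 were lower in the cKO libraries, their summed level being 362730 and 364039 normalised reads in the controls against 87220 and 88254 in the cKO libraries. Astrocyte RNA was abundant in all libraries: per kilobase of gene, the astrocyte filament gene Gfap stood at 83404 normalised reads in the controls and 131677 in the cKO libraries, against 14796 and 1954 for the myelin gene Mbp. Gfap was the most abundant of the listed astrocyte markers per kilobase. Aqp4, the next in the controls, stood at 8047 in the controls and 7204 in the cKO libraries.

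Of the 55 genes, 33 were higher and 22 lower in the cKO libraries (limma, adjusted p under 0.05). Across all listed genes 100% were called, 46.7% higher and 53.3% lower. The members' median log2 fold change was 0.26, against -0.22 over all listed genes. Changes of at least 1.5-fold by the limma log2 value were seen upward in 15 members, where the share over all listed genes was 17.4%, and downward in 10, where it was 27.6%. The libraries of the genotypes did not overlap in any of the 55 genes, as in 6939 of the 6940 listed genes (100% to 3 digits). The direction of many small changes depended on the treatment of GC content: with the trend of fold change with GC content removed, 18 members were higher and 22 lower, so that 45.0% of called members were higher against 60.0% as deposited. Among all called genes the share higher was then 41.4%, against 46.7% as deposited. The trend was fitted on the listed genes, all selected for a difference, so its removal may also take out real change.

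**Figure D1:**
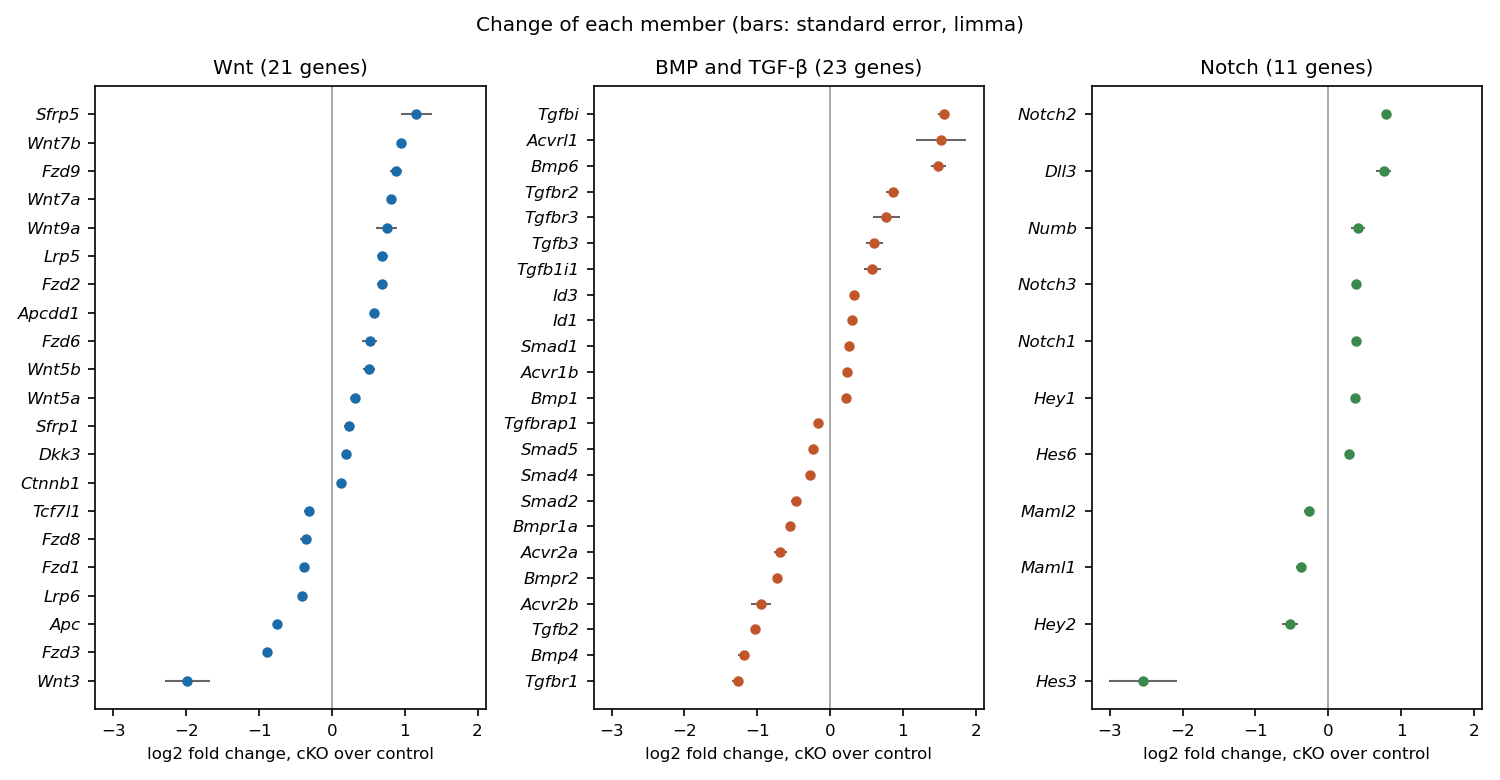
Log2 fold change (cKO over control) of the 55 members in 3 panels by pathway, each point with its standard error from limma. Wnt members run from -1.99 for Wnt3 to 1.16 for Sfrp5, BMP and TGF-beta members from -1.27 for Tgfbr1 to 1.56 for Tgfbi, and Notch members from -2.54 for Hes3 to 0.79 for Notch2.

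Among Wnt ligands, 5 of the 6 listed were higher in the cKO libraries and 1, Wnt3, was lower. Wnt7b (ENSMUSG00000022382, chromosome 15, 85535437 to 85582473, GRCm38), a ligand known in brain vessel growth, stood at 2546 and 2602 normalised reads in the control libraries against 5142 and 4808 in the cKO libraries. The rise was 1.93-fold (limma log2 fold change 0.95 with SE 0.04 and adjusted p 2.36e-15). Its close relative Wnt7a (ENSMUSG00000030093, chromosome 6, 91363981 to 91411363) stood at 2224 and 2236 in the controls against 4049 and 3783 in the cKO libraries, 1.76-fold higher (limma log2 fold change 0.81 with SE 0.04 and adjusted p 1.14e-13). After removal of the GC trend the log2 fold changes of Wnt7b and Wnt7a were 0.45 and 0.38. These 2 were the most abundant listed Wnt ligands per kilobase in both genotypes, at 526 and 703 normalised reads per kilobase in the controls against 1016 and 1235 in the cKO libraries.

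The other Wnt ligands were at lower levels. Wnt9a stood at 108 and 113 normalised reads in the controls against 182.1 and 192.2 in the cKO libraries, 1.69-fold higher, but was no longer called after removal of the GC trend (log2 fold change 0.30, limma adjusted p 0.17). Wnt5a and Wnt5b, which act mainly without beta-catenin, rose 1.24-fold and 1.42-fold. The value of Wnt5b went to -0.0066 on the log2 scale with the GC trend removed, while that of Wnt5a was 0.49. Wnt3, a beta-catenin-activating ligand, was rare: it stood at 68 and 59.1 normalised reads in the controls against 13.1 and 17.8 in the cKO libraries, which were 126 and 31 recovered reads in all. It fell by 1.99 on the log2 scale (SE 0.31, limma adjusted p 7.15e-06), and the exact 95% counting interval of the ratio ran from 2.84 to 6.5 (counting error only).

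Frizzled receptors split evenly, 3 higher and 3 lower. Fzd3 (ENSMUSG00000007989, chromosome 14, 65192449 to 65262463), a receptor used in axon guidance and planar polarity, stood at 7997 and 8062 normalised reads in the controls against 4222 and 4407 in the cKO libraries. That was 1.86-fold lower (limma log2 fold change -0.90 with SE 0.04 and adjusted p 3.59e-16). Its log2 value was -0.28 after removal of the GC trend. Fzd9 stood at 375 and 363.5 in the controls against 731.6 and 633.6 in the cKO libraries, 1.85-fold higher. Fzd2 stood at 757 and 675 in the controls against 1213 and 1095 in the cKO libraries, 1.61-fold higher, and Fzd6 rose 1.44-fold. Per kilobase, Fzd3 was 3.21 times Fzd2 in the controls and 1.07 times Fzd2 in the cKO libraries.

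The remaining Frizzled genes, Fzd1 and Fzd8, fell 1.30-fold and 1.29-fold, and DESeq2 called neither (adjusted p 0.0611 and 0.321). The co-receptors moved in opposite directions. Lrp5 stood at 598 and 577.3 normalised reads in the controls against 950.4 and 952.8 in the cKO libraries, 1.62-fold higher (limma log2 fold change 0.69 with SE 0.07 and adjusted p 6.15e-09). Lrp6 stood at 2306 and 2250 in the controls against 1669 and 1750 in the cKO libraries, 1.33-fold lower (limma log2 fold change -0.41 with SE 0.05 and adjusted p 1.09e-07). Both kept their direction and call with the GC trend removed. Per kilobase, Lrp6 was 2.76 times Lrp5 in the controls and 1.28 times Lrp5 in the cKO libraries.

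The 4 listed Wnt inhibitors and relatives were higher as deposited, with Dkk3 at -0.012 on the log2 scale once the GC trend was removed. Apcdd1 (ENSMUSG00000071847), a membrane protein that binds Wnt and Lrp proteins, stood at 1387 and 1406 normalised reads in the controls against 2062 and 2107 in the cKO libraries. Apcdd1 rose 1.49-fold (limma log2 fold change 0.58 with SE 0.05 and adjusted p 6.00e-10), and its log2 value was 0.62 after removal of the GC trend. Apcdd1 is itself known as a Wnt target. Sfrp5, a secreted Frizzled-like protein that sequesters Wnts, stood at 53 and 40.7 in the controls against 105.3 and 104.4 in the cKO libraries, 2.24-fold higher. Sfrp1 rose by 0.23 on the log2 scale and Dkk3, a secreted relative of the Dkk inhibitors, by 0.20. Neither was called after removal of the GC trend (log2 fold change of Sfrp1 0.037).

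Inside the cell, Apc, the scaffold of the destruction complex, stood at 7118 and 7336 normalised reads in the controls against 4245 and 4301 in the cKO libraries, 1.69-fold lower (limma log2 fold change -0.76 with SE 0.04 and adjusted p 9.65e-15). Its log2 fold change was -0.39 with the GC trend removed. Ctnnb1, which encodes beta-catenin, was the most abundant Wnt member per kilobase and changed least, from 17380 and 17799 to 19617 and 18594, 1.09-fold higher. That call was lost without control replicate 1 (adjusted p 0.11) and after removal of the GC trend (log2 fold change -0.028). Of its exonic bases, 14.6% overlap Ulk4 on the other strand, as do 9.8% in Notch1, 6.6% in Wnt7b and 5.7% in Bmp6 for other genes. No strand setting was given in the sources used here, so reads of such partners cannot be told apart. Tcf7l1, a DNA-binding partner of beta-catenin that mostly represses, fell 1.25-fold, but its adjusted p was 0.122 under median-of-ratios (relative log expression, RLE) scaling. With the GC trend removed Tcf7l1 was called lower, at -0.82 on the log2 scale.

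**Figure D2:**
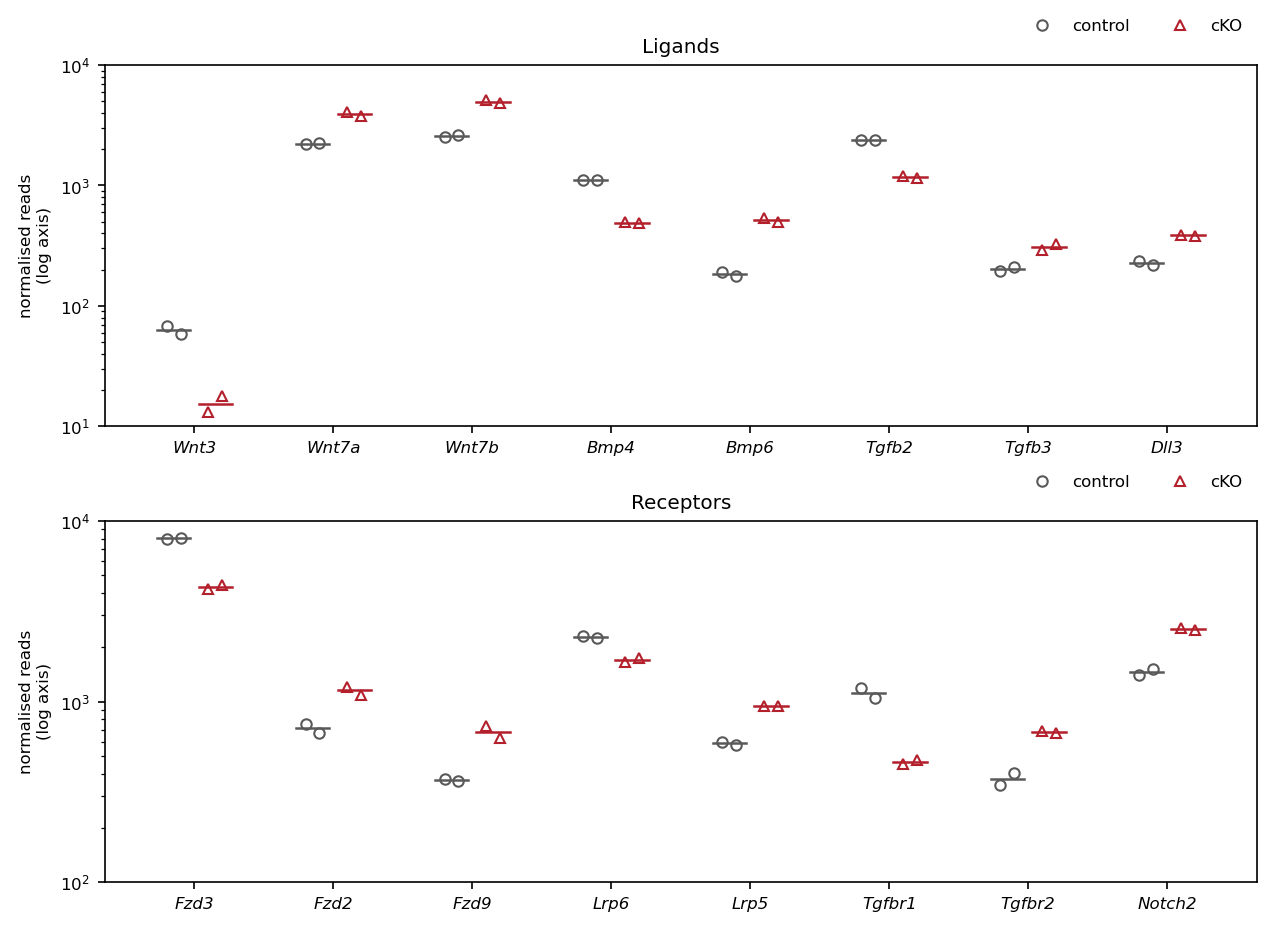
Normalised reads of 8 ligands (top) and 8 receptors (bottom) on log axes, with circles for the 2 control libraries, triangles for the 2 cKO libraries and lines for the means. The genotypes separate in every gene shown, as in 6939 of the 6940 listed genes. Levels are higher in cKO for Wnt7a, Wnt7b, Bmp6, Tgfb3, Dll3, Fzd2, Fzd9, Lrp5, Tgfbr2 and Notch2. They are lower for Wnt3, Bmp4, Tgfb2, Fzd3, Lrp6 and Tgfbr1.

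BMP and TGF-beta ligands moved in opposite directions within each family. Bmp4 (ENSMUSG00000021835, chromosome 14, 46383520 to 46390669, GRCm38), the BMP best known for turning oligodendrocyte precursors toward astrocytes, stood at 1114 and 1116 normalised reads in the controls against 493.2 and 484.1 in the cKO libraries. That was 2.28-fold lower (limma log2 fold change -1.19 with SE 0.07 and adjusted p 3.50e-13). Its log2 value was -1.50 after removal of the GC trend. Bmp6 (ENSMUSG00000039004, chromosome 13, 38345107 to 38500302) stood at 193 and 177.2 in the controls against 540.5 and 500.7 in the cKO libraries. It was 2.81-fold higher (limma log2 fold change 1.49 with SE 0.10 and adjusted p 9.82e-12). Its log2 value was 1.01 after removal of the GC trend. Per kilobase, Bmp4 was 10.5 times Bmp6 in the controls and 1.63 times Bmp6 in the cKO libraries.

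Tgfb2 (ENSMUSG00000039239, chromosome 1, 186622792 to 186705989) stood at 2398 and 2400 normalised reads in the controls against 1190 and 1163 in the cKO libraries, 2.04-fold lower (limma log2 fold change -1.03 with SE 0.05 and adjusted p 1.36e-14). Tgfb3 stood at 194 and 209.7 in the controls against 290.7 and 327.5 in the cKO libraries, 1.53-fold higher, and was not called after removal of the GC trend (log2 fold change 0.27, adjusted p 0.0964). Of Tgfb3's exonic bases 12.4% overlap genes on the other strand. Both ligands signal through the Tgfbr1 and Tgfbr2 receptors. Per kilobase, Tgfb2 was 6.94 times Tgfb3 in the controls and 2.22 times Tgfb3 in the cKO libraries.

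Receptors of the BMP and TGF-beta pathways were lower in 5 cases and higher in 4. Tgfbr1 (ENSMUSG00000007613, chromosome 4, 47353222 to 47414931), the type I receptor kinase for TGF-beta, stood at 1191 and 1051 normalised reads in the controls against 449.9 and 477 in the cKO libraries. It was 2.42-fold lower (limma log2 fold change -1.27 with SE 0.08 and adjusted p 5.32e-13), the largest fall among receptors as deposited. With the GC trend removed its log2 value was -0.70, and Acvr2b (-1.35) and Fzd1 (-0.82) fell more. Tgfbr2, its type II partner that binds ligand first, stood at 346 and 401.1 in the controls against 685 and 668.1 in the cKO libraries, 1.81-fold higher (limma log2 fold change 0.86 with SE 0.09 and adjusted p 8.82e-09). Per kilobase, Tgfbr1 went from 3.76 times Tgfbr2 in the controls to 0.858 times Tgfbr2 in the cKO libraries.

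Of the receptors that serve BMPs and activins, Bmpr1a, Bmpr2, Acvr2a and Acvr2b were lower as deposited, Bmpr1a not with the GC trend removed. Bmpr1a, a type I BMP receptor and the most abundant listed receptor per kilobase, stood at 7453 and 7847 normalised reads in the controls against 5024 and 5393 in the cKO libraries, 1.47-fold lower. Its log2 fold change was -0.55 and came to 0.00039 with the GC trend removed. Bmpr2, the type II BMP receptor, stood at 3262 and 3138 in the controls against 1993 and 1862 in the cKO libraries, 1.66-fold lower, and its log2 fold change was -0.73 as deposited but -0.16 with the GC trend removed. The activin type II receptors Acvr2b and Acvr2a fell 1.94-fold and 1.61-fold. Acvr2b stayed low after removal of the GC trend (log2 fold change -1.35), whereas Acvr2a was no longer called (-0.048, adjusted p 1.0).

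Acvrl1, Tgfbr3 and Acvr1b were higher as deposited, Acvr1b lower with the GC trend removed. Acvrl1, a type I receptor of endothelial cells, was rare, at 12 and 24.4 normalised reads in the controls against 50.6 and 52.2 in the cKO libraries (limma log2 fold change 1.53 with SE 0.34 and adjusted p 5.24e-04). Its log2 fold change was 1.04 without control replicate 1 and 2.01 without control replicate 2. Tgfbr3, a co-receptor that presents TGF-beta, stood at 100 and 75.3 in the controls against 175.5 and 127 in the cKO libraries, 1.73-fold higher. Acvr1b, a type I activin receptor, rose 1.18-fold and was lower after removal of the GC trend (log2 fold change -0.13).

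Smads, which carry the receptor signal to the nucleus, changed less than 1.5-fold. Smad2, which serves TGF-beta and activin, fell most as deposited, from 1138 and 1057 normalised reads to 795.3 and 791.5, 1.38-fold lower. Smad4, the shared partner, fell 1.22-fold and Smad5, which serves BMPs, 1.18-fold, while Smad1, also of the BMP branch, rose by 0.26 on the log2 scale. Each of the 4 lost its call under at least 1 alternative: Smad4 and Smad5 were not called under RLE scaling, Smad1 and Smad2 were not called with the GC trend removed, and Smad5 then turned to 0.11 on the log2 scale. Smad4 was still called lower with the GC trend removed, at -0.35.

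The BMP targets Id1 and Id3, inhibitors of basic helix-loop-helix factors such as Olig1 and Olig2, were higher as deposited and lower with the GC trend removed. Id3 stood at 7017 and 7170 normalised reads in the controls against 8973 and 8799 in the cKO libraries, 1.25-fold higher (limma log2 fold change 0.33 with SE 0.03 and adjusted p 1.44e-08). Id1 stood at 2829 and 2947 in the controls against 3694 and 3403 in the cKO libraries, 1.23-fold higher. After removal of the GC trend the log2 fold changes were -0.11 for Id3 and -0.12 for Id1. Per kilobase, Id3 was the most abundant of all 55 genes, at 3960 normalised reads in the controls and 4961 in the cKO libraries.

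Tgfbi (ENSMUSG00000035493, chromosome 13, 56609523 to 56639562), a matrix protein induced by TGF-beta, stood at 382 and 352.3 normalised reads in the controls against 1092 and 1076 in the cKO libraries. It was 2.95-fold higher (limma log2 fold change 1.56 with SE 0.08 and adjusted p 1.04e-14). Its log2 value was 1.21 after removal of the GC trend. Tgfb1i1, an adaptor of focal adhesions, rose from 245 and 259.6 to 430.3 and 332.2, 1.51-fold by the ratio of means and 0.58 by the limma log2 value, just short of 1.5-fold. Bmp1, a protease that processes collagens rather than a BMP ligand, rose 1.16-fold and turned to -0.25 on the log2 scale with the GC trend removed. Tgfbrap1, a receptor-associated trafficking protein, fell 1.13-fold, was not called under trimmed-mean (TMM) scaling (log2 fold change -0.10, adjusted p 0.129) and stood at 0.021 on the log2 scale under RLE scaling. With the GC trend removed Tgfbrap1 was called lower, at -0.43.

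The RNA of the culture's other cell types moved in the same libraries. Of 12 pericyte and fibroblast markers 10 were listed, all 10 were higher, none was at 0 in any library, and their summed level was 4322 and 4047 normalised reads in the controls against 12915 and 12484 in the cKO libraries. Among 12 astrocyte markers 11 were listed, 9 higher and 2 lower, and the sum went from 511353 and 512203 to 771559 and 764521. Gfap made up most of the astrocyte sum. The 2 lower astrocyte markers, S100b and Aqp4, fell 3.09-fold and 1.12-fold. Microglia markers, 6 of 12 listed and all 6 higher, summed to 2717 and 2643 in the controls against 3834 and 4038 in the cKO libraries. Endothelial markers, 4 of 10 listed with 2 higher and 2 lower, summed to 449 and 452 and then 383 and 408. Most of that sum was Kdr and Vwf, which fell 1.91-fold and 1.44-fold. The rarer Cdh5 and Emcn, at control means of 13.1 and 11.6 normalised reads, rose 6.64-fold and 3.79-fold. Neuron markers, 11 of 12 listed with 9 higher and 2 lower, went from 18876 and 19184 to 18286 and 18086. The 2 lower, Map2 and Dcx, made up most of the neuron sum and fell 1.43-fold and 1.32-fold. Of the higher neuron markers 7 rose at least 1.5-fold by the limma log2 value. The part of these shifts in the changes of Tgfbi, Tgfbr2, Acvrl1, the Wnt ligands or any other member was not tested, and fewer cells of a type and less RNA per cell cannot be told apart in such bulk libraries.

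In the Notch pathway the 3 receptors and the listed ligand were higher and the nuclear coactivators lower as deposited, and Notch1 and Notch3 were below 0 with the GC trend removed. Notch2 (ENSMUSG00000027878, chromosome 3, 98013527 to 98150361, GRCm38) stood at 1402 and 1515 normalised reads in the controls against 2558 and 2489 in the cKO libraries. It was 1.73-fold higher (limma log2 fold change 0.79 with SE 0.05 and adjusted p 2.46e-12). Its log2 value was 0.42 after removal of the GC trend. Notch1 (ENSMUSG00000026923, chromosome 2, 26457903 to 26516663), the receptor studied most in oligodendrocyte precursors, stood at 5071 and 5194 in the controls against 6819 and 6531 in the cKO libraries, 1.30-fold higher (limma log2 fold change 0.38 with SE 0.04 and adjusted p 4.63e-09). Notch3, a receptor of mural cells and progenitors, rose 1.31-fold, from 2007 and 2050 to 2761 and 2545. Their values with the GC trend removed were -0.089 for Notch1 (adjusted p 0.0589) and -0.12 for Notch3 (adjusted p 0.0488) on the log2 scale. Per kilobase Notch1 was 2.67 times Notch2 in the controls and 2.00 times in the cKO libraries.

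Dll3, a divergent ligand that acts within the cell and inhibits Notch, stood at 237 and 217.9 normalised reads in the controls against 390.3 and 383.3 in the cKO libraries, 1.70-fold higher. It was not called after removal of the GC trend (log2 fold change 0.24, adjusted p 0.115). Numb, which promotes Notch turnover, rose 1.32-fold, with an adjusted p of 0.0577 without control replicate 1. Maml1 and Maml2, the coactivators that bind Notch and Rbpj on DNA, fell 1.30-fold and 1.19-fold. DESeq2 called neither (adjusted p 0.131 and 1.0). Under RLE scaling Maml2 was not called (adjusted p 0.883), and it was also lost without control replicate 2 (0.0505) and without cKO replicate 2 (0.0898).

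The 4 listed Hes and Hey genes, grouped here by family name, did not move together as deposited. Hey1, a repressor induced by Notch and BMP, stood at 2595 and 2560 normalised reads in the controls against 3334 and 3346 in the cKO libraries, 1.30-fold higher, and was not called after removal of the GC trend (log2 fold change 0.056). Hey2 stood at 331 and 387.9 in the controls against 238.4 and 259.9 in the cKO libraries, 1.44-fold lower. DESeq2 did not call Hey2 (adjusted p 0.108), nor did limma with the GC trend removed (0.0609). Hes6, which counters Hes1 and favours differentiation, rose 1.22-fold and turned to -0.25 on the log2 scale with the GC trend removed. Hes3 had the largest log2 fold change of the members with all 4 libraries but few reads, 85 in both controls together and 17 in both cKO libraries, 3 of them in cKO replicate 2. The scaled ratio of control to cKO reads was 5.21, with an exact 95% counting interval of 3.07 to 9.37, and the log2 fold change was -2.54 (SE 0.46, limma adjusted p 4.83e-05). Single libraries moved it: it was -3.27 without cKO replicate 1 and -1.82 without cKO replicate 2, where Wnt3 fell more (-2.19).

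The DNA before the transcription starts was searched for motifs of the factors at the end of these pathways. RefSeq promoter sequences (GRCm38.p6) were at hand for 33 of the 55 genes, as 44 start sites, and the 250 bases before each start were read on both strands. The Rbpj motif GTGGGAA, whose reverse complement is TTCCCAC, was present before 5 of the 44 member starts, in Bmpr2, Hey2, Smad5, Tcf7l1 and Wnt9a, or 11.4%, against 5.4% of all 32851 starts. The GC-rich Smad element GGCGCC, its own reverse complement, was present before 9 of the 44, or 20.5%, against 9.6% of all starts. It lay in Bmpr1a, Bmpr2, Ctnnb1, Fzd9, Smad5, Tgfbi, Tgfbr1, Tgfbrap1 and Wnt9a, a mix of genes that rose and fell as deposited. Neither motif contains the other, and both occurred in Bmpr2, Smad5 and Wnt9a. A match is a description of letters and not a site of binding.

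The stretches printed are those around the motif, 5′ to 3′ in the gene's direction and free of annotated exons. They are from 2 type I receptors and Hey2, a Notch target, which were lower as deposited, and from a Wnt ligand that was higher as deposited. With the GC trend removed only Tgfbr1 of these genes was still called. The Bmpr1a stretch lies within the annotated span of that gene (34410734 to 34503341), before a start inside it. Capitals mark the motif. They lie at chr14:34502703-34502780 (minus strand) for Bmpr1a, chr4:47352972-47353030 (plus strand) for Tgfbr1, chr10:30842948-30843026 (minus strand) for Hey2 and chr11:59306680-59306732 (plus strand) for Wnt9a. The first base of the motif lies 198, 233, 207 and 240 bases before the respective start.
Bmpr1a: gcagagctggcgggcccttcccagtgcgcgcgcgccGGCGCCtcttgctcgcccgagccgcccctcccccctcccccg
Tgfbr1: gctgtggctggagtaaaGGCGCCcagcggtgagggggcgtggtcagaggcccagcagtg
Hey2: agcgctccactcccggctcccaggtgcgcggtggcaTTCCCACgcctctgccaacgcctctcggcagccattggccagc
Wnt9a: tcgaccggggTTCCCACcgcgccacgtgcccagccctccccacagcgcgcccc

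**Figure D3:**
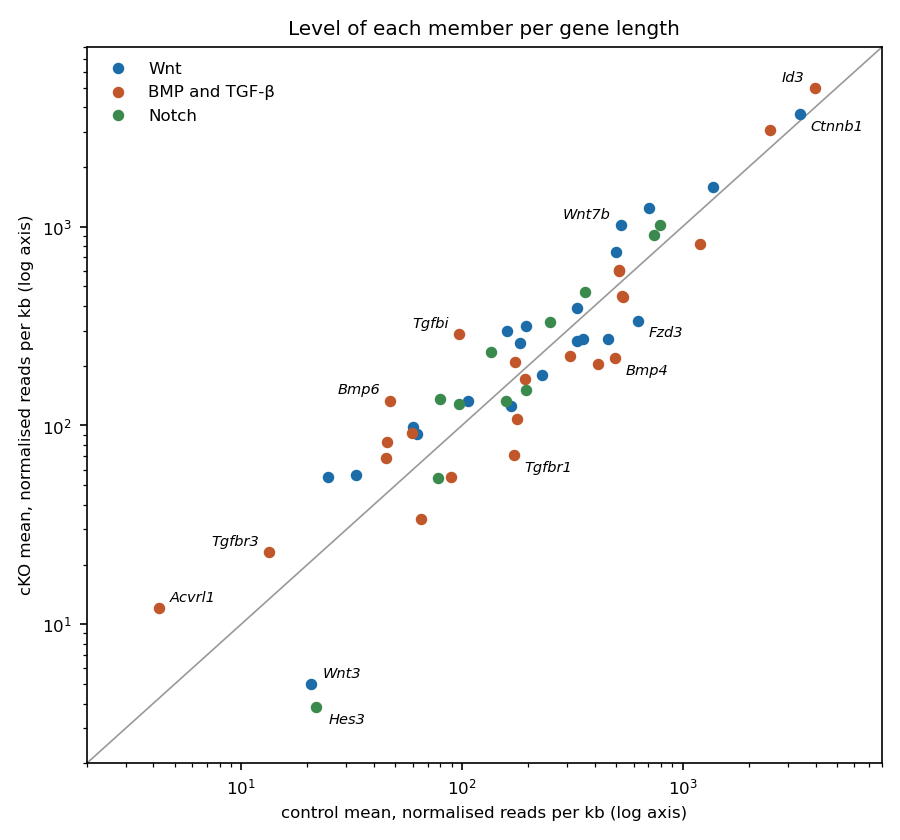
Mean level of each member in the control (x) and cKO (y) libraries as normalised reads per kilobase of gene length, on log axes, coloured by pathway, with the diagonal marking equal levels. Levels run from 4.27 for Acvrl1 to 3960 for Id3 in the controls, and Hes3 and Wnt3 lie farthest below the diagonal.

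Levels per kilobase set the order of the receptors. In the controls it ran from Bmpr1a at 1204 normalised reads per kilobase through Fzd3 at 627, Acvr1b at 514, Notch1 at 361 and Fzd1 at 352 down to Tgfbr2 at 45.6, Tgfbr3 at 13.4 and Acvrl1 at 4.27. Bmpr2 at 178 and Tgfbr1 at 172 did not differ beyond the spread of their control libraries. In the cKO libraries Bmpr1a still led, at 820, followed by Acvr1b at 605 and Notch1 at 469, and Fzd3 stood at 337. Among ligands the control order from the top was Wnt7a at 703, Wnt7b at 526, Bmp4 at 496 and Tgfb2 at 414, and in the cKO libraries Wnt7a at 1235 and Wnt7b at 1016 stood well above Wnt5b at 261 and Bmp4 at 217.

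The members that rose and fell also differed in base composition. The GC content of the longest annotated transcript had a median of 54.7% in the 33 genes that were higher and 46.9% in the 22 that were lower. The lowest GC content of a member that rose was 46.7%, in Wnt5a, and the 10 members below that value are therefore lower by the choice of the cut: Acvr2a, Apc, Bmpr1a, Bmpr2, Fzd3, Hey2, Lrp6, Smad2, Smad5 and Tgfbr1. Across the 55 genes log2 fold change and GC content had a Pearson correlation of 0.407, and across the 6934 listed genes with a GC value it was 0.446. All points come from the same 4 libraries. Some lower genes lay above the median GC content of listed genes (49.4%), such as Bmp4 (52.5%), Wnt3 (52.6%), Acvr2b (54.4%) and Hes3 (59.4%).

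**Figure D4:**
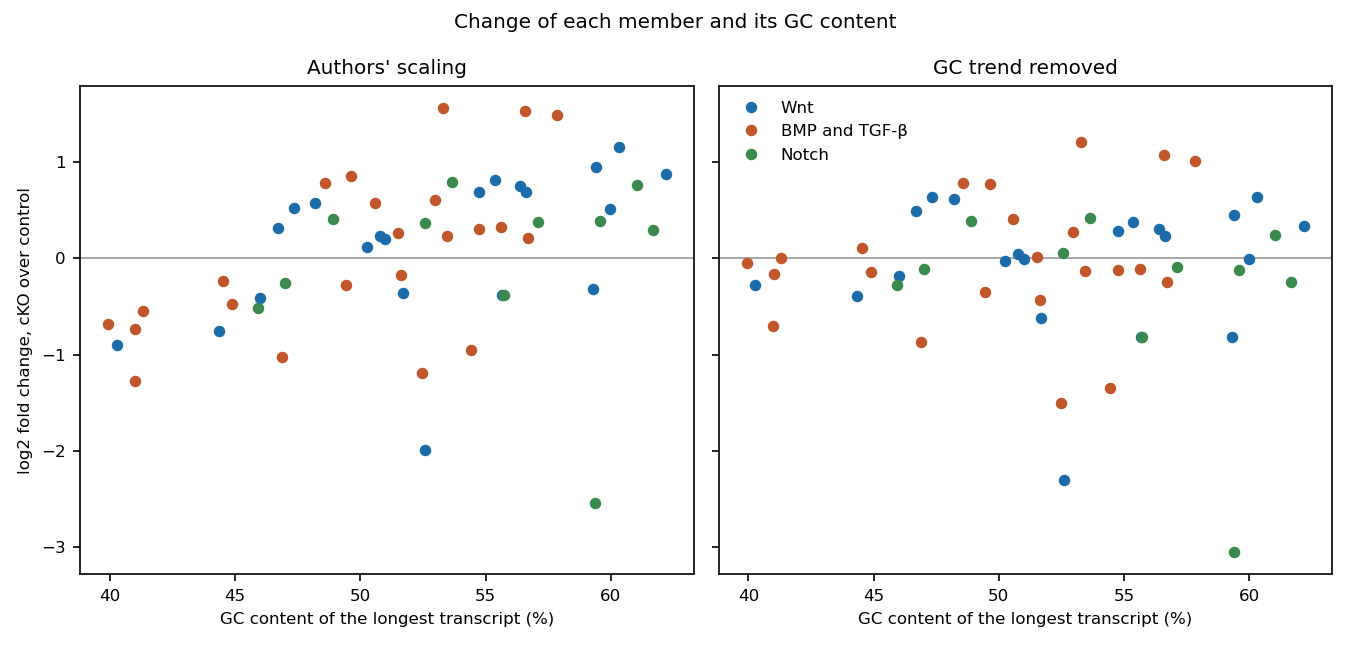
Log2 fold change of each member against the GC content of its longest transcript in percent, as deposited (left) and with the trend over all listed genes removed (right), coloured by pathway. On the left the 10 genes to the left of Wnt5a, the riser of lowest GC content, lie below 0. On the right Bmpr1a, Acvr2a and Smad5 of these lie near or above 0, while Bmp4, Wnt3, Acvr2b and Hes3 remain below.

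In 26 members the direction and the call were the same under every alternative in which the gene was fitted, 16 of them higher and 10 lower. The same count was not made over all listed genes. Whether members kept their calls more or less often than listed genes in general was therefore not tested. The 10 lower genes were Acvr2b, Apc, Bmp4, Bmpr2, Fzd3, Hes3, Lrp6, Tgfb2, Tgfbr1 and Wnt3. Those higher were Acvrl1, Apcdd1, Bmp6, Fzd2, Fzd6, Fzd9, Lrp5, Notch2, Sfrp5, Tgfb1i1, Tgfbi, Tgfbr2, Tgfbr3, Wnt5a, Wnt7a and Wnt7b. Hes3, Wnt3 and Acvrl1 had too low a mean for the alternative that required a mean of 50.

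Other genes of the same pathways were read from lists by role. In the BMP and TGF-beta list 28 of 51 genes were listed, 21 of them higher and 7 lower, and their median log2 fold change was 0.53. Secreted antagonists of BMP and activin were higher in all 5 listed cases as deposited and in 4 with the GC trend removed, among them Fstl1, from 3919 and 3893 normalised reads to 7660 and 7795, and Nbl1, 1.78-fold higher. Fst, which binds activin, rose 1.82-fold, and Bambi, a pseudoreceptor that blocks signalling, 1.83-fold. All 6 listed genes of TGF-beta storage and activation were higher as deposited, Lrrc32 3.37-fold and Ltbp3 1.70-fold. With the GC trend removed 4 of the 6 were still called, while Furin stood at 0.01 and Ltbp4 at -0.21 on the log2 scale (both named after their values were seen). The TGF-beta-responsive matricellular gene Ctgf stood at 148 and 150.7 in the controls against 510.3 and 491.2 in the cKO libraries, and Eng, an endothelial co-receptor, at 64 and 66.2 and then 213.1 and 217.1. Of the 7 lower genes 6 lay among the 9 intracellular regulators, and the other was the co-receptor Neo1, named after its values were seen. Skil, a Smad corepressor, fell 2.10-fold, Trim33 1.88-fold, and the ubiquitin ligases Smurf1 and Smurf2 1.83-fold and 1.66-fold. Under RLE scaling 4 of the 7 lower genes of this list were still called, and Zeb1, named after its values were seen, stood at 0.01 on the log2 scale.

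In the Wnt list 24 of 58 genes were listed, 14 of them higher and 10 lower, and their median was 0.37. Prickle1, a planar polarity protein, had the largest change, from 3305 and 3180 normalised reads to 595.2 and 625.3, 5.31-fold lower (limma log2 fold change -2.41 with SE 0.06 and adjusted p 4.29e-21). Cytoplasmic transducers and inhibitors were lower in 7 of 8 listed cases as deposited, with Tnik, a kinase that acts on Tcf factors, falling 1.57-fold. Of these 7, 4 were still called lower under RLE scaling and 5 with the GC trend removed. Gpc4, a glypican that carries Wnts, rose 2.05-fold and Frzb, a secreted Wnt antagonist, 2.15-fold. Ror2, a receptor for Wnt5a, rose 1.78-fold but was not called with the GC trend removed (adjusted p 0.173).

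In the Notch list 24 of 37 genes were listed, 11 of them higher and 13 lower, and their median was -0.19. The share higher (45.8%) and the median were near those of all listed genes. All 5 listed genes of the nuclear complex and its corepressors were lower as deposited, with log2 fold changes from -0.69 to -0.23, and Kdm5a, a histone demethylase, fell 1.62-fold. Of the 5, 3 were still called lower under RLE scaling and 3 with the GC trend removed. Mib1, the ubiquitin ligase that activates Notch ligands, stood at 3478 and 3349 normalised reads in the controls against 1756 and 1807 in the cKO libraries, 1.92-fold lower. Cntn1, an adhesion protein described as a Notch ligand of oligodendrocytes, fell 1.64-fold. The Fringe glycosyltransferases Lfng and Mfng rose 1.52-fold and 1.72-fold, and neither was called with the GC trend removed (adjusted p 0.0666 and 0.287).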

How the data were processed

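The single table deposited by the authors holds each gene's normalised signal in each library (reads divided by 1 size factor per library), genotype means, a log2 fold change, p-values and gene lengths, per the file headers. The submitters' processing notes name DESeq2, mm10 and GRCm38; aligner, counter and strand setting: not given in the sources used here. Values were whole multiples of 1 step per library (100% within 0.01 read), so reads were recovered for edgeR (4.0.16) and DESeq2 (1.42.0) as alternatives. The RLE, TMM, edgeR and DESeq2 factors were estimated from the listed genes only, whose median log2 fold change was -0.22. They moved log2 fold changes upward, by a median of 0.191 with RLE and 0.0693 with TMM factors. Falls are weakened by this shift, so a fall that lost its call under these factors is not shown to be absent. The GC trend, too, was fitted on the listed genes only. A change lost or reversed by its removal is therefore not shown to be absent. Genotypes were compared with limma (3.58.1, R 4.3.3) on log2(value + 1) with a mean-variance trend over all 6940 genes (all passed the filter, 1 normalised read in 2 libraries) and 2 residual degrees of freedom. That scale understates the change of low genes. Folds are ratios of mean normalised reads. P-values were Benjamini-Hochberg adjusted over the 17347 genes behind the authors' adjustment, with a threshold of 0.05. The listed genes were selected for their difference, so pooled variances may be too small and p-values too low.

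Members, lists and alternatives were chosen with earlier results of these data known. All members could be named; full values were given mainly for changes of at least 1.5-fold and the leading genes of each role, and examples of other pathway genes were drawn from those changed at least 1.5-fold, with exceptions stated. Thresholds of 1.5-fold were applied to the limma log2 value. The fit was tested on simulated data in which most genes were unchanged, unlike the listed genes. That test therefore does not check the p-values given here. Replicate libraries differed by more than counting noise (mean chi-square per gene 2.32 in controls and 3.24 in cKO). Same-numbered libraries did not deviate together (correlation 0.01) and were not treated as pairs. Levels between genes were compared per kilobase (1000 bases) of the deposited gene length.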

Additional observations from a re-analysis of the deposited data

How the results depend on the processing

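The 55 members gave 33 higher and 22 lower calls under the pseudocounts of 0.5 and 8, without a filter, with the replicate block, and with adjustment over the listed genes only. TMM scaling and edgeR each gave 33 and 21, and a mean of at least 50 gave 32 and 20 of the 52 fitted. Leaving out 1 library gave 31 to 33 higher and 20 to 22 lower. Since the replicate numbers did not pair the libraries, the block result is given only here: it changed no member's call and moved the calls over all genes from 3244 higher and 3696 lower to 3242 and 3696. Over all genes the median log2 fold change shifted by 0.191 with RLE and by 0.0693 with TMM factors. With DESeq2, 33 members were higher and 13 lower (71.7% of the called members higher), and with limma under RLE scaling 33 and 16 (67.3%). Among all called genes the shares higher were 56.3% with DESeq2 and 52.7% under RLE scaling. With the GC trend removed 18 members were higher and 22 lower. This setting lowered the other Wnt genes called higher from 14 to 5 and the other Notch genes called higher from 11 to 3. The other BMP and TGF-beta genes called lower went from 7 to 4 under RLE scaling and DESeq2, and DESeq2 called 7 of the other Notch and 6 of the other Wnt genes lower, against 13 and 10.

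Removing the GC trend reversed the direction (log2 values in parentheses) of Acvr1b (-0.13), Bmp1 (-0.25), Bmpr1a (0.00039), Ctnnb1 (-0.028), Dkk3 (-0.012), Hes6 (-0.25), Id1 (-0.12), Id3 (-0.11), Notch1 (-0.089), Notch3 (-0.12), Smad5 (0.11) and Wnt5b (-0.0066). Tgfbrap1 reversed under RLE scaling and DESeq2 (0.021 in each).

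The median log2 fold change was 0.32 for Wnt, 0.21 for BMP and TGF-beta and 0.37 for Notch members. With the GC trend removed these were 0.04, -0.11 and -0.11, under RLE scaling and DESeq2 0.51, 0.41 and 0.57, under TMM scaling 0.39, 0.28 and 0.44, and with edgeR 0.38, 0.29 and 0.44. With a mean of at least 50 the Wnt median was 0.41 and that of BMP and TGF-beta 0.02. Without 1 library the medians ranged from 0.26 to 0.37 for Wnt, 0.17 to 0.24 for BMP and TGF-beta and 0.32 to 0.37 for Notch members. Under RLE, TMM, edgeR and DESeq2 the medians moved by about the shift over all listed genes. The factors were estimated from those same genes, so these moves are a matter of scaling. The cause of the other shifts was not tested. The 3 members with a mean under 50 normalised reads (Hes3, Wnt3, Acvrl1) are limited by counting.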
